A study of Mus musculus with 6 samples.

Results

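The 8 genes described here encode the core of the machinery that fuses synaptic vesicles with the plasma membrane of the nerve terminal: the target SNAREs Snap25 and Stx1a, the vesicle SNAREs Vamp1 and Vamp2, the calcium sensors Syt1 and Syt2, and the complexins Cplx1 and Cplx2. They were listed by name and found by matching Ensembl identifiers to mouse symbols. All 8 had a row among the 18160 genes of the deposited table, and all 8 were among the 15151 genes tested. The RNA came from prefrontal cortex that was taken on postnatal day 56 from mice of the C57BL/6J strain. There were 3 samples labelled heterozygous for Cyfip2 and 3 wild-type samples, numbered 1 to 3 in each genotype, and all 6 shared strain, age and tissue. The kind of Cyfip2 mutation is not named in the labels. They do not tell whether each sample is a separate animal, and p-values therefore cover the spread among these 6 samples, which may be technical.

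A SNARE is a short protein with a helical stretch that zips up with its partners. On the vesicle a VAMP protein supplies one helix, on the plasma membrane a syntaxin and SNAP-25 supply the others, and the assembled bundle pulls the membranes together. Complexin binds the partly assembled bundle, holding it ready and aiding fusion, and synaptotagmin triggers fusion when calcium enters the terminal. In the forebrain Syt1 is the main sensor for fast release, whereas Syt2 and, in part, Vamp1 and Cplx1 are known from fast-spiking inhibitory neurons.

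None of the 8 mRNAs differed between genotypes beyond the test. Normalized counts were compared as log2(value + 1) with limma-trend, which fits each gene by itself and steadies its variance with that of genes of like abundance. Benjamini-Hochberg adjustment ran over all 15151 tested genes, and an adjusted p under 0.05 counted as passing. No member passed, where 0.0132% of all tested genes did. Nor did any member have an unadjusted p under 0.05, which 5.07% of all tested genes had. In 7 of the 8 genes the heterozygous mean lay below the wild-type mean, with Syt1 the exception, and 49.2% of all tested genes had a heterozygous mean on that side. The median log2 difference, heterozygous minus wild type, was -0.06 over the 8 genes and 0.002 over all tested genes. Each fitted difference was smaller than 10% of the wild-type level, and each 95% interval included 0.

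The measurement was precise for these genes. The standard error of the log2 difference was 0.047 to 0.070. Single samples lay between 86.7% and 109% of the wild-type mean of the same gene over all 48 values. Cyfip2 itself, which checks the labels, had 28356, 28578 and 29567 normalized counts in the heterozygous samples, against 45454, 43174 and 45627 in the wild-type samples. It was at 64.4% of wild type, with a 95% interval of 59.7% to 69.5% (adjusted p = 0.0027 by limma-trend). A loss of that size lay outside the 95% interval of each of the 8 genes.

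**Figure D1:**
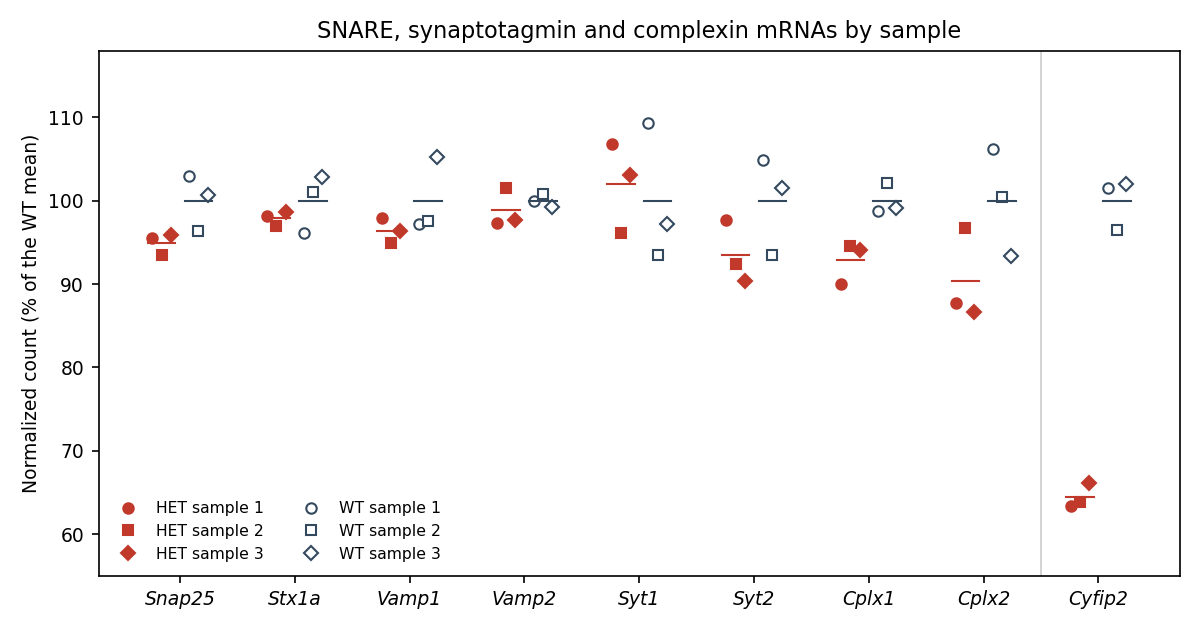
Normalized count of each gene in each sample as a percentage of its wild-type mean, with heterozygous samples filled and wild-type samples open, marker shapes for samples 1 to 3 and lines for group means. The 8 fusion genes lie between 86.7% and 109%, while Cyfip2, on the right, lies between 63.4% and 66.1% in the heterozygous samples.

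The totals of normalized counts were 36.6 to 37.1 M in heterozygous and 36.4 to 37.0 M in wild-type samples (M for 1e+06). Low values fell on steps of 0.99 to 1.14 normalized counts per read in heterozygous and 0.77 to 1.36 in wild-type samples. These steps imply about 32.1 to 37.5 M reads in heterozygous and 27.2 to 48.0 M reads in wild-type samples. At that depth the counting error of a single value was at most 2.02% (Syt2 in wild-type sample 3) and as low as 0.25% (Snap25), so the spread between samples was mostly larger than the counting error. The defining markers of cortical excitatory neurons were strong, with Slc17a7, the vesicular glutamate transporter, at 47790 to 51529 normalized counts in heterozygous and 51248 to 55120 in wild-type samples. Markers of other cells were present too. Mbp of myelin was at 52142 to 57726 normalized counts in heterozygous and 56542 to 78883 in wild-type samples, and Gfap of astrocytes at 3561 to 4668 in heterozygous and 2793 to 4447 in wild-type samples. Cx3cr1 of microglia was at 1659 to 1858 in heterozygous and 1545 to 1961 in wild-type samples, and Cldn5 of endothelium at 724 to 905 in heterozygous and 763 to 904 in wild-type samples. Drd1 of striatal neurons, at 229 to 266 normalized counts in heterozygous and 215 to 284 in wild-type samples, was low.

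Levels of the 8 genes spanned a wide range. Divided by the length in kilobases of 1 annotated transcript per gene, Snap25 was the most abundant, with 54127 ± 765 in heterozygous and 57000 ± 1930 in wild-type samples (normalized counts per kilobase, SD, n = 3 each). In heterozygous samples Vamp2 followed at 15738 ± 372, then Syt1 at 14429 ± 762, Cplx1 at 12756 ± 347, Cplx2 at 10278 ± 624, Stx1a at 6400 ± 55.6, Vamp1 at 2905 ± 44.9 and Syt2 at 446 ± 18.0. The order was the same in wild-type samples, with Vamp2 at 15917 ± 120, Syt1 at 14145 ± 1166, Cplx1 at 13731 ± 257, Cplx2 at 11373 ± 727, Stx1a at 6535 ± 229, Vamp1 at 3014 ± 136 and Syt2 at 477 ± 27.9. Syt1 and Cplx1 were the only neighbours whose samples overlapped, Syt1 being the higher in 5 of 6 samples. With the union of all annotated exons as the length, Cplx1 and Cplx2 came before Vamp2 and Syt1, so the order among these 4 depends on the transcript assumed.

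Snap25 and Stx1a are the target SNAREs of the presynaptic membrane. Snap25 (ENSMUSG00000027273, chr2:136713453-136782428, plus strand, GRCm38) had 115209, 112686 and 115702 normalized counts in the heterozygous samples, against 124195, 116165 and 121476 in the wild-type samples. All heterozygous values lay below all wild-type values, though heterozygous sample 3 and wild-type sample 2 were close. The mean was 114532 ± 1618 in heterozygous and 120612 ± 4084 in wild-type samples (SD, n = 3 each). The fitted difference was -5.01%, with a 95% interval of -12.5% to 3.06% (log2 difference -0.07 ± 0.05 (SE), adjusted p = 0.95 by limma-trend). An exact two-sided permutation test over samples gave p = 0.1, and 3 against 3 samples can go no lower. The alternative splice forms of Snap25 are summed in this gene-level table.

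Stx1a (ENSMUSG00000007207, chr5:135023482-135051100, plus strand) had 13867, 13704 and 13938 normalized counts in heterozygous samples, against 13576, 14280 and 14531 in wild-type samples. The genotypes overlapped, since wild-type sample 1 held the lowest value of all. The difference was -2.03% (95% interval -9.04% to 5.52%, adjusted p = 0.99 by limma-trend). The log2 difference was -0.058 without wild-type sample 1 and -0.0091 without wild-type sample 3, against -0.030 with all samples.

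Vamp1 and Vamp2 are the vesicle SNAREs. Vamp2 (ENSMUSG00000020894, chr11:69088490-69092384, plus strand), the main vesicle SNARE of the forebrain, had 34167, 35645 and 34291 normalized counts in heterozygous samples, against 35072, 35373 and 34848 in wild-type samples. The wild-type values lay inside the span of the heterozygous values. The difference was -1.15% with a 95% interval of -8.02% to 6.24% (adjusted p = 0.99 by limma-trend), the smallest difference of the 8 with all samples. The log2 difference was -0.0056 without heterozygous sample 1 and -0.036 without heterozygous sample 2, against -0.017 with all samples. Vamp2 lies on the chromosome that carries Cyfip2, 22.8 megabases away.

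Vamp1 (ENSMUSG00000030337, chr6:125215551-125245964, plus strand) had 8177, 7928 and 8050 normalized counts in heterozygous samples, against 8118, 8154 and 8790 in wild-type samples. Wild-type sample 3 stood above the other 5, which overlapped. The difference was -3.56% (95% interval -10.9% to 4.39%, adjusted p = 0.97 by limma-trend). Without wild-type sample 3 the log2 difference was -0.015, against -0.052 with all samples. On the opposite strand Tapbpl overlaps the annotated Vamp1 gene, introns included, at a mean of 257 normalized counts. Overlap of their exons was not examined. Whether strand entered the counting is not stated in the labels.

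Values of paralogues can be told apart only where their mRNAs differ. The longest identical run of the Vamp1 and Vamp2 coding sequences was 18 bases, and no word of 31 bases was shared between the transcripts. The run is shown in capitals with 30 bases on each side, 5′ to 3′, from the GENCODE transcripts, in the stretch that encodes part of the SNARE motif, for Vamp1 on chr6:125218668-125218955 and for Vamp2 on chr11:69089194-69089775 (both plus strand, exons 2 and 3 joined).
Vamp1: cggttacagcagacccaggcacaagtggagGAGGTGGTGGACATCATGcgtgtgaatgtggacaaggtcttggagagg
Vamp2: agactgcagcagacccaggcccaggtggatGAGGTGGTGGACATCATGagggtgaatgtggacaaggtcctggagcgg

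Syt1 and Syt2 are the calcium sensors. Syt1 (ENSMUSG00000035864, chr10:108497650-109010982, minus strand) had 72822, 65573 and 70250 normalized counts in heterozygous samples, against 74503, 63756 and 66274 in wild-type samples. Wild-type samples held both the highest and the lowest value, and samples numbered 1 were the highest in each genotype. The difference was 2.14% (95% interval -8.29% to 13.8%, adjusted p = 0.99 by limma-trend), the only one above 0 and the one with the largest standard error. Its log2 difference was -0.0033 without heterozygous sample 1 and -0.016 without wild-type sample 2, so its sign rested on single samples. On the same strand Gm5136 (1397 bases) and Gm47477 (3132 bases) overlap the annotated Syt1 gene, introns included. Neither was among the genes with deposited values, and overlap of exons was not examined.

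Syt2 (ENSMUSG00000026452, chr1:134646677-134762593, plus strand) was the least abundant of the 8. It had 3206, 3033 and 2966 normalized counts in heterozygous samples, against 3445, 3071 and 3334 in wild-type samples. Wild-type sample 2 lay among the heterozygous samples, and the other wild-type samples lay above them. The difference was -6.49% (95% interval -15.0% to 2.85%, adjusted p = 0.95 by limma-trend). Without wild-type sample 2 the log2 difference was -0.14, against -0.10 with all samples, and the unadjusted p was 0.042. Without wild-type sample 1 it was -0.061, with an unadjusted p of 0.38. Ppp1r12b overlaps the annotated Syt2 gene on the opposite strand over 7936 bases, introns included, at a mean of 6325 normalized counts. Whether their exons overlap was not examined.

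Syt1 and Syt2 shared a longest run of 26 coding bases and no word of 31 bases. It lies on chr10:108504515-108583943 (minus strand, exons 10 and 11 joined) for Syt1 and on chr1:134745778-134746769 (plus strand, exons 7 and 8 joined) for Syt2.
Syt1: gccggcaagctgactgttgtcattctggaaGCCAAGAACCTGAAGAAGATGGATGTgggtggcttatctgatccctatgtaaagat
Syt2: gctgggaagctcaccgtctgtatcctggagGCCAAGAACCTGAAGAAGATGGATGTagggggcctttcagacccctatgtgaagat

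With all 6 samples the complexins had the largest differences of the 8 genes, and neither passed the test. Syt2 had the largest without heterozygous sample 1 (log2 difference -0.13) or without wild-type sample 2 (-0.14). Cplx1 (ENSMUSG00000033615, chr5:108518554-108550024, minus strand) had 27050, 28425 and 28296 normalized counts in heterozygous samples, against 29679, 30702 and 29788 in wild-type samples. All heterozygous values lay below all wild-type values. The mean was 27923 ± 759 in heterozygous and 30056 ± 562 in wild-type samples (SD, n = 3 each). The difference was -7.11% (95% interval -13.7% to 0.013%), at a log2 difference of -0.11 ± 0.05 (SE) with an unadjusted p of 0.0503 (adjusted p = 0.95 by limma-trend). The exact two-sided permutation test gave p = 0.1, again the lowest possible value.

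Cplx2 (ENSMUSG00000025867, chr13:54371349-54383917, plus strand) had 49196, 54179 and 48569 normalized counts in heterozygous samples, against 59505, 56281 and 52350 in wild-type samples. The genotypes overlapped, because heterozygous sample 2 lay above wild-type sample 3. The mean was 50648 ± 3074 in heterozygous and 56045 ± 3583 in wild-type samples (SD, n = 3 each). The difference was -9.61% (95% interval -18.3% to 0.010%), at a log2 difference of -0.15 ± 0.07 (SE) with an unadjusted p of 0.0502 (adjusted p = 0.95 by limma-trend). It was -0.20 without heterozygous sample 2 and -0.10 without wild-type sample 1.

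Snap25 and Cplx1 were the 2 of 8 genes whose genotypes did not overlap, where 10.5% of all tested genes did not overlap.

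The complexins also had the longest identical coding run of the paralogue pairs, while likeness over the whole sequence was not measured. Their coding sequences shared an identical run of 32 bases and 2 of 372 words of 31 bases, so very few reads could fit both. The run begins near the start codon and encodes part of the amino-terminal region. It is shown in capitals from the start codon on, for Cplx1 on chr5:108525510-108548536 (minus strand, exons 2 and 3 joined) and for Cplx2 on chr13:54378669-54378869 (plus strand, exons 2 and 3 joined).
Cplx1: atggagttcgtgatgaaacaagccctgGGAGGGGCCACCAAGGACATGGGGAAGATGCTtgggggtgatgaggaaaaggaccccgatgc
Cplx2: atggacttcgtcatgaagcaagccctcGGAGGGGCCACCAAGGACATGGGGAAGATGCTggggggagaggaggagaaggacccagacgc

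**Figure D2:**
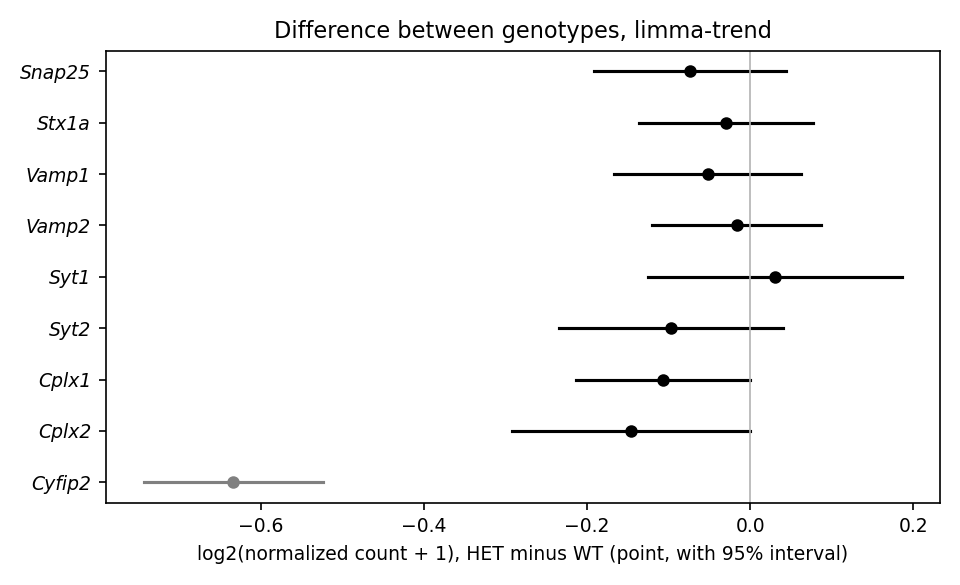
Log2 difference in normalized count, heterozygous minus wild type, with its 95% interval from limma-trend, for the 8 fusion genes and Cyfip2 (grey). The intervals of the 8 genes all include 0, the complexin intervals ending just above it, and Cyfip2 lies at -0.63.

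**Figure D3:**
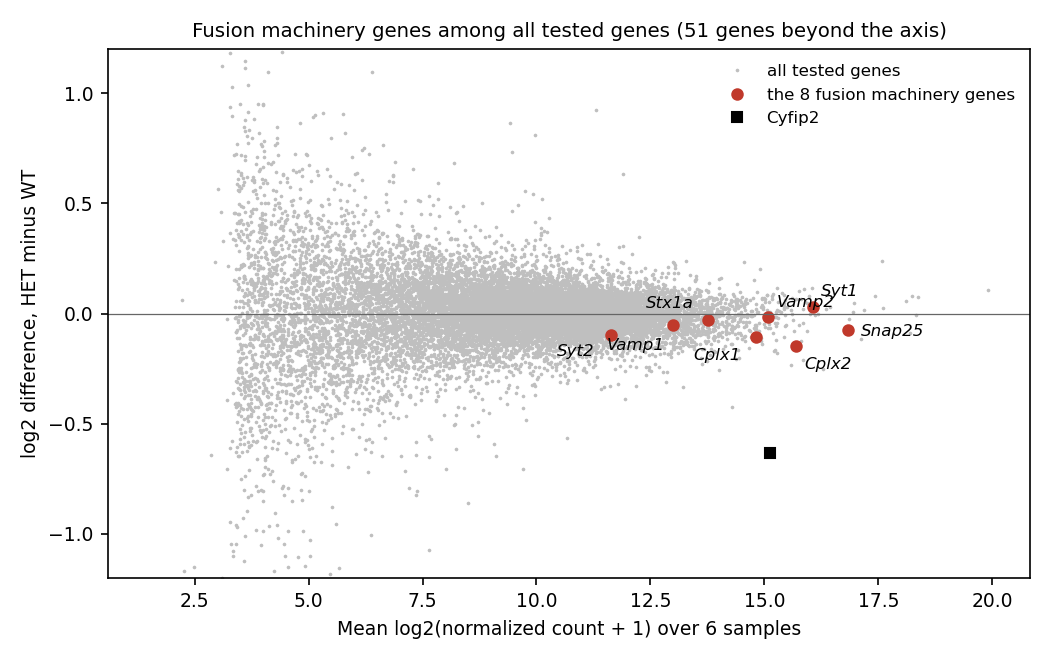
Log2 difference (heterozygous minus wild type) against mean log2(normalized count + 1) over 6 samples for all 15151 tested genes in grey, the 8 fusion genes in red and Cyfip2 as a black square; 51 genes lie beyond the vertical axis. The 8 genes sit in the upper range of expression and inside the band of the other genes.

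Together the 8 genes made up 0.872%, 0.875% and 0.880% of all normalized counts in heterozygous samples, against 0.941%, 0.901% and 0.895% in wild-type samples. The sum was lower in each heterozygous sample than in each wild-type sample, and Snap25 gave the largest part of it. Wild-type sample 1 held the highest value of 4 genes (Snap25, Syt1, Syt2 and Cplx2) and the lowest of Stx1a. Without wild-type sample 1 the heterozygous mean was still lower in 7 of 8 genes, with a median log2 difference of -0.06. Without heterozygous sample 1 or wild-type sample 2 it was lower in 8 of 8.

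Cell type markers also differed between samples. Cortical excitatory neuron markers had 6 of 8 genes below wild type and a median log2 difference of -0.10, and their summed level was 239089 to 255239 normalized counts in heterozygous and 264308 to 272741 in wild-type samples, without overlap. Pan-neuronal markers had 4 of 8 below and 4 of 8 above wild type and a median of 0.000, with sums of 218378 to 229685 in heterozygous and 223049 to 224129 in wild-type samples. In both lists 1 gene gave the largest part of the sum, as also in the myelin, astrocyte, meningeal and subcortical lists. Single markers without overlap between genotypes were 3 of 8 cortical excitatory and 2 of 8 pan-neuronal genes, where 10.5% of all tested genes did not overlap. Each of these markers was lower in heterozygous samples. Astrocyte markers had 2 of 10 below wild type and a median of 0.04, with sums of 195815 to 214697 in heterozygous and 183937 to 215947 in wild-type samples. Endothelial and mural markers had 1 of 10 below and a median of 0.09, with sums of 13526 to 15161 in heterozygous and 11957 to 14570 in wild-type samples. Wild-type sample 1, where several fusion genes were highest, had the lowest astrocyte, microglial, endothelial and meningeal marker means of the 6 samples. Wild-type sample 2 had the highest myelin and striatal marker means. Microglial markers had 3 of 10 genes below wild type and a median of 0.05, with sums of 14410 to 15192 in heterozygous and 12901 to 15995 in wild-type samples, and meningeal and fibroblast markers 1 of 9 and a median of 0.14, with sums of 25811 to 30506 in heterozygous and 23894 to 29942 in wild-type samples. Oligodendrocyte and myelin markers had 11 of 12 below and a median of -0.11, with sums of 132124 to 142901 in heterozygous and 135641 to 188066 in wild-type samples. Striatal markers had 6 of 8 below and a median of -0.24, with sums of 7584 to 8353 in heterozygous and 8760 to 9843 in wild-type samples, also without overlap. No marker of these lists passed the threshold, and no defining marker was at 0. Their part in the values of the fusion genes was not tested, and in bulk tissue fewer cells of a type and less RNA per cell cannot be told apart.

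The balance between paralogues was taken as the log2 ratio of their normalized counts within a sample. This cancels a scaling factor that acts alike on both genes, whereas the mix of cells in a sample need not cancel. The Syt2 to Syt1 ratio was -4.51, -4.43 and -4.57 in heterozygous samples, against -4.43, -4.38 and -4.31 in wild-type samples. Heterozygous sample 2 and wild-type sample 1 met at the same rounded value, and the other heterozygous samples lay below the other wild-type samples. The means differed by -0.13, more than the pooled SD between samples (0.06). The difference was -0.16 without heterozygous sample 2 and -0.095 without heterozygous sample 3, the ends of its range with 1 sample left out. Per kilobase Syt2 made up 3.00% ± 0.13 of the pair in heterozygous and 3.27% ± 0.13 in wild-type samples (SD, n = 3 each). The ratio of Vamp1 to Vamp2 differed by -0.04 and that of Cplx1 to Cplx2 by 0.04, each less than the pooled SD between samples (0.06 and 0.09). Both signs turned with 1 sample left out, to 0.0066 for Vamp1 to Vamp2 without wild-type sample 3 and to -0.014 for Cplx1 to Cplx2 without wild-type sample 1. Vamp1 made up 15.6% ± 0.50 of its pair per kilobase in heterozygous and 15.9% ± 0.69 in wild-type samples, and Cplx1 55.4% ± 1.30 of its pair in heterozygous and 54.7% ± 1.67 in wild-type samples (SD, n = 3 each). These ratios and shares are descriptions without a test. The shares assume 1 transcript per gene, and those of Vamp1 and Syt2 depend on it. With the union of all annotated exons as the length, the means per kilobase in heterozygous samples were 792 for Vamp1 and 9110 for Vamp2. By that length they were 402 for Syt2 and 8341 for Syt1, so the shares of these pairs would differ.

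**Figure D4:**
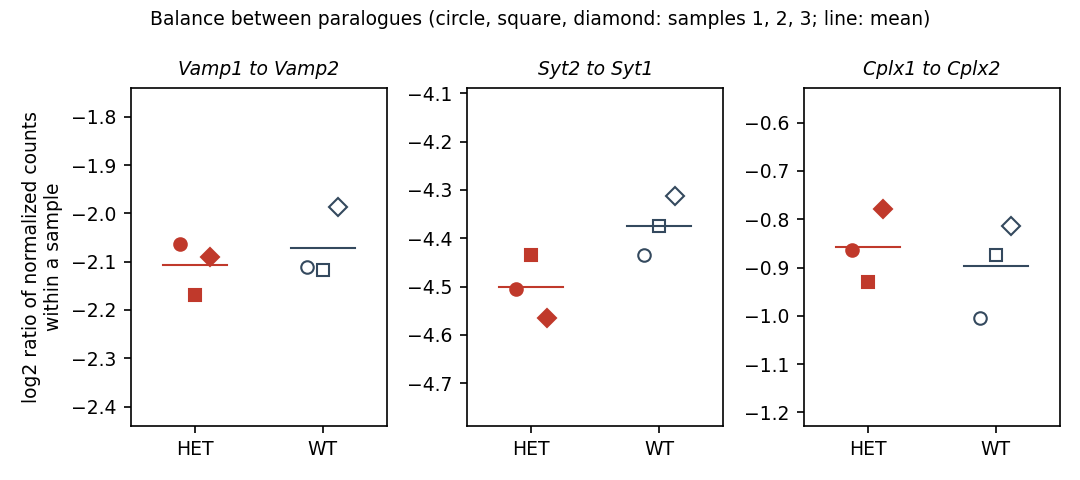
Log2 ratio of normalized counts between paralogues within each sample, heterozygous samples (filled) left of wild-type samples (open), with lines for the means; the vertical axes span the same range but are centred separately. Heterozygous and wild-type samples overlap in each pair, least so in the Syt2 to Syt1 ratio, whose means differ by -0.13.

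Beyond the 8 genes, no gene of the SNARE pathway lists passed the threshold. Of 10 other target SNARE genes, 4 were below and 6 above wild type, with a median log2 difference of 0.04. Snap23, the broadly expressed relative of Snap25, had 421, 456 and 450 normalized counts in heterozygous samples, against 477, 520 and 551 in wild-type samples. Its genotypes did not overlap, at a log2 difference of -0.22 ± 0.09 (SE, adjusted p = 0.95 by limma-trend). The syntaxins Stx7 and Stx16, which serve endosomes and the trans-Golgi network, were at 0.10 ± 0.06 and 0.11 ± 0.07 (SE). Of 7 other vesicle SNARE genes, 3 were below and 4 above wild type, with a median of 0.04, among them Vamp4 at 0.07 ± 0.06, the low-level Vamp5 at 0.19 ± 0.21 and Vti1b at 0.04 ± 0.06 (SE).

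Among 15 other synaptotagmins and related calcium sensors, 5 were below and 10 above wild type, with a median log2 difference of 0.03, and 5 of 15 did not overlap between genotypes, where 10.5% of all tested genes did not. Doc2a, a high-affinity calcium sensor of asynchronous and spontaneous release, had 1879, 1832 and 1921 normalized counts in heterozygous samples, against 1587, 1396 and 1633 in wild-type samples. All heterozygous values were the higher, at a log2 difference of 0.29 ± 0.07 (SE) with an unadjusted p of 0.0022 (adjusted p = 0.73 by limma-trend). Its paralogue Doc2b lay the other way, at 266, 264 and 264 in heterozygous and 333, 309 and 276 in wild-type samples, with a log2 difference of -0.21 ± 0.10 (SE) and an adjusted p of 0.95 by limma-trend. Syt10, at low level, had 58.1, 75.3 and 83.8 normalized counts in heterozygous and 53.6, 54.9 and 58.5 in wild-type samples. Cplx3, a complexin of deep cortical layers, had 567, 608 and 570 in heterozygous and 519, 618 and 386 in wild-type samples, with wild-type sample 3 the lowest. Its log2 difference was 0.22 ± 0.15 (SE, adjusted p = 0.95 by limma-trend), on the other side of wild type from Cplx1 and Cplx2.

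Of the 20 genes for priming, SNARE binding and recycling, 12 were below and 8 above wild type, with a median log2 difference of -0.02 and none past the threshold, unadjusted or adjusted. The smallest p belonged to Unc13b, a vesicle priming factor, at -0.10 ± 0.06 (SE), followed by Prrt2, a SNARE-binding protein linked to paroxysmal movement disorders, at -0.11 ± 0.08, and Stxbp6, a SNARE-binding protein, at 0.12 ± 0.08 (SE). Markers in the fast-spiking interneuron list included genes of inhibitory neurons in general, so they do not stand for the cells with Syt2 alone. The 16 markers had 5 below wild type and a median of 0.03. Their values lay on both sides of wild type: Hapln4, of perineuronal nets, was at -0.26 ± 0.05 and Nefh, the heavy neurofilament subunit, at -0.23 ± 0.06, whereas Btbd11 was at 0.22 ± 0.08 (log2 difference ± SE, adjusted p = 0.67, 0.73 and 0.91 by limma-trend). Pvalb, the defining marker, had 1425, 1499 and 1618 normalized counts in heterozygous samples, against 1639, 1587 and 1739 in wild-type samples, and the genotypes overlapped. Slc17a6, of subcortical excitatory neurons, was at 565 to 843 in heterozygous and 753 to 980 in wild-type samples. The 6 markers of these neurons had 3 below wild type and a median log2 difference of -0.05, with sums of 4931 to 5676 in heterozygous and 5450 to 6420 in wild-type samples.

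**Figure D5:**
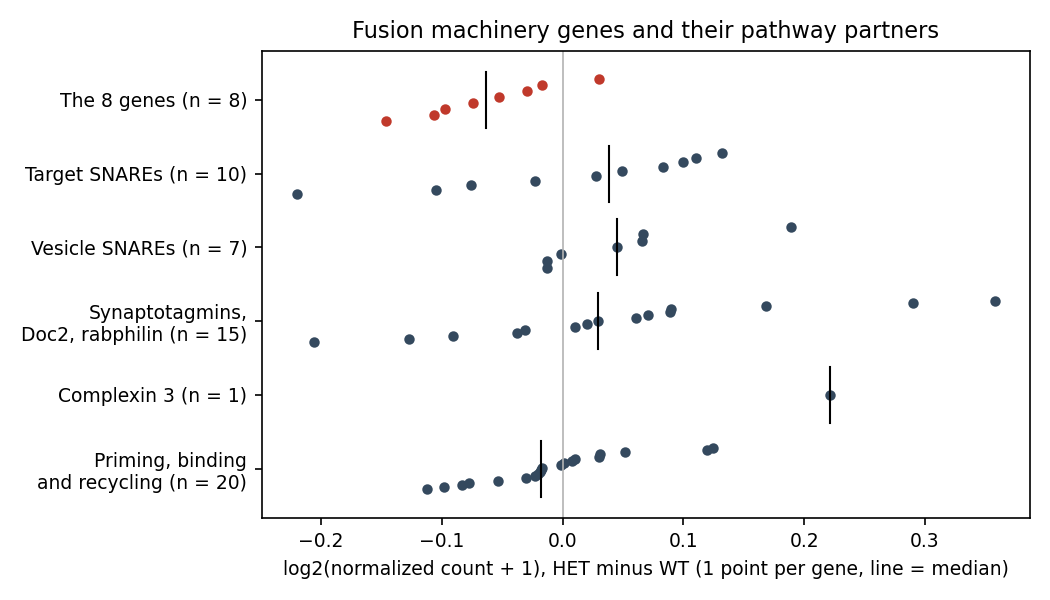
Log2 difference (heterozygous minus wild type) of each tested gene, 1 point per gene with a line at the median, for the 8 fusion genes in red and for 5 lists of pathway partners in dark blue. The median is -0.06 for the 8 genes and lies between -0.02 and 0.04 in the target SNARE, vesicle SNARE, calcium sensor and priming lists. Cplx3, the only gene of the complexin list, lies at 0.22.

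Among 8992 other genes with a mean of at least 500, the gene with the most similar pattern over the 6 samples was sought for each member, by the root mean square difference of centred log2 values. It was Rab6b for Snap25, Chst10 for Stx1a, Nudt3 for Vamp1, Gon4l for Vamp2, Iars for Syt1, Csgalnact2 for Syt2, Fam98a for Cplx1 and Bcas3 for Cplx2. The difference ranged from 0.0047 (Gon4l) to 0.028 (Bcas3) on the log2 scale. No test was made of this likeness, and none of the 8 neighbours passed the threshold.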

How the data were processed

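RNA was sequenced from 3 heterozygous and 3 wild-type prefrontal cortex samples with a stranded poly(A) kit, per the labels' protocols. The submitters' processing notes list Salmon 0.11.2, R 3.6.0, DESeq2 1.19.11 and GRCm38 but no role for any of them. The authors deposited a normalized signal, 1 value per gene and sample, and not raw counts; the scaling factors are not known. Low values gave the read steps, and depths from them are estimates. No count model was used, since the deposited values are normalized and are not whole counts.

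limma 3.58.1 (R 4.3.3) was run with its trend option on log2(value + 1) of the genes whose mean reached 10, with genotype alone in the model. The fold scale understates changes of low genes. The exact permutation tests (SciPy 1.17.1) were two-sided. The procedure was tested on simulated data. The changes planted there were larger than the differences of the 8 genes, so that test does not bear on differences as small as theirs. Symbols matched 18122 of 18160 identifiers; of the listed partners Vamp7, Cplx4 and Meg3 were not analysed here, and Stx4 was matched as Stx4a. Transcripts, lengths and positions came from GENCODE M21 (GRCm38), with the principal transcript of each gene. Members and lists were chosen with earlier results of these data known. Named were Cyfip2, the 8 members, the 3 genes of smallest p in each pathway list and in the fast-spiking list, the nearest pattern of each member and a defining marker per cell type. 1 other gene that the rule named is not reported here. Ppp1r12b, Tapbpl, Gm5136 and Gm47477 were named for overlapping members. Alternatives changed the scaling (a trimmed mean of M-values, computed with code written for this purpose), the variance model (no trend, or robust), the filter (none, or a mean of 50), the pseudocount (0.5 or 5) and the threshold (0.1), added sample number as a block, or dropped 1 sample.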

Additional observations from a re-analysis of the deposited data

How the results depend on the processing

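No member passed the adjusted threshold under any of the 14 refits or at a threshold of 0.1, and the lowest adjusted p over them was 0.44 (Cplx2, with the block). Snap25, Stx1a, Vamp1, Vamp2, Syt2, Cplx1 and Cplx2 stayed below wild type in each. Leaving out 1 sample at a time, the log2 difference ranged from -0.10 to -0.053 for Snap25, -0.058 to -0.0091 for Stx1a, -0.072 to -0.015 for Vamp1, -0.036 to -0.0056 for Vamp2, -0.016 to 0.096 for Syt1, -0.14 to -0.061 for Syt2, -0.12 to -0.084 for Cplx1 and -0.20 to -0.10 for Cplx2. Over all genes, 2 passed, against 1 by limma without the trend, 1 with a mean of at least 50, and 1 to 4 without single samples. At an unadjusted p under 0.05, Cplx1 passed in 5 and Cplx2 in 7 of 14 refits. The sample numbers were not taken to pair the samples: same-numbered samples correlated at 0.13, 0.12 and -0.0052 in their deviations from the group means, and not every sample correlated best with its own number. With the replicate block 2 genes passed, no member among them, and the unadjusted p was 0.015 for Cplx1 and 0.014 for Cplx2. The paralogue ratios were recomputed with the other scaling, with both pseudocounts and without each sample in turn, and moved by less than the spread between samples in these. The sign of Vamp1 to Vamp2 turned without wild-type sample 3, and that of Cplx1 to Cplx2 without wild-type sample 1. With 3 samples a genotype, differences that lie within the stated intervals could not be told from 0.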
